A study of Bos taurus with 8 samples.

Results

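Trophectoderm and epiblast were compared in bovine embryos on day 9 after fertilization, in single cells that the deposited cell table assigns to the classes LB TE and LB EPI. TE and EPI are the field's short forms of trophectoderm and epiblast, and LB is printed as the table gives it. The members were the cells of these classes, 31 LB TE and 45 LB EPI cells, 76 of the 286 cells with values. All came from wildtype embryos of Bos taurus, with no injection or treatment named in the labels. A library is a pool of separately barcoded cells from embryos of several ages, and a cell's library is given in its name. LB TE cells came from replicates 2, 3 and 5 (1, 21 and 9 cells) and LB EPI cells from replicates 1, 2, 3 and 5 (1, 11, 9 and 24 cells). Each library and class with at least 3 cells gave an average over its cells, which left 2 LB TE averages (replicates 3 and 5, 30 cells) and 3 LB EPI averages (replicates 2, 3 and 5, 44 cells). The sources used here do not say how cells were assigned to classes. If expression in these same cells set the classes, the genes that define them are no independent evidence of a difference. Embryo and sex are not named for any cell, so cells of several embryos can share a library. P-values therefore measure the spread between library averages alone, and that spread may be technical. In the reported fit it was estimated from the averages of all classes of the wildtype libraries, and not from LB TE and LB EPI alone.

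The blastocyst is a hollow ball whose outer epithelium, the trophectoderm, seals and inflates the cavity and later forms the fetal part of the placenta. The inner cells give rise to the epiblast, the source of the embryo proper, and to the hypoblast, which lines the cavity. In cattle the trophectoderm stays unattached for a long time, elongates, and secretes interferon tau, the signal by which the mother recognises the pregnancy.

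Reads per cell had a median of 196521 in LB TE and of 196981 in LB EPI. Genes with a read had a median of 8926 in the first class and 8260 in the second. By library the median depth was 138668 and 222109 reads per cell in LB TE (replicates 3 and 5) and 216676, 176029 and 197767 in LB EPI (replicates 2, 3 and 5). In replicate 5, 4 of the 24 LB EPI cells had under 50000 reads. The 48 cell barcodes are used again in each library, and 46 of them occur in every library, so a barcode alone does not identify a cell. Values below are CPM, the reads of a gene scaled to 1000000 reads per cell, averaged over the cells of a library. They are printed in the order replicates 3 and 5 for LB TE and replicates 2, 3 and 5 for LB EPI. CPM is not corrected for gene length, so levels are compared between classes and not between genes. A log2 difference is LB TE minus LB EPI of log2(CPM + 10), which understates the change of genes with low values.

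The authors' class names matched most markers of trophectoderm and epiblast. The keratins KRT8, KRT18 and KRT19, the desmosome gene DSP, the endocytic receptor LRP2 and GATA3 were higher in LB TE. NANOG, SOX2, POU5F1 and TDGF1 were higher in LB EPI. Among the fixed markers GATA2 was not called and LIN28A was too low to be tested. The hypoblast marker GATA6 was higher in LB TE. Among 12540 genes tested, 1902 (15.2%) passed an adjusted p of 0.05, of which 1037 (8.27% of those tested) were higher and 865 (6.9%) lower in LB TE. The sign of the difference was the same in replicates 3 and 5, which hold both classes, for 1901 of these 1902. The library averages of the classes did not overlap for 46.2% of all genes tested, and for 1892 of the called genes, so absence of overlap alone is a common state here. The median log2 difference over all genes tested was -0.04. The number of calls depended on the libraries. Of the 1037 rises 763, 529 and 542 were also called without replicates 2, 3 and 5 in turn, and of the 865 falls 638, 287 and 455. Leaving out replicate 3 or 5 leaves 1 LB TE average, whose spread is then taken to be that of the other classes. Where a gene given below with its log2 difference between LB TE and LB EPI lost its call under an alternative setting, the adjusted p under that setting is given beside a result of that gene. For called genes named without a difference, the number of alternatives without a call and the highest adjusted p are given instead.

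For 24 of the called genes the single cells of the classes did not overlap. These genes were picked out after their values were seen and carry no test beyond their own adjusted p. For 17 genes every one of the 31 LB TE cells lay above every one of the 45 LB EPI cells. They included KRT8, KRT18, KRT19, DSP, PERP, GRHL1, CAPG, PLS1, LRP2, ACSL3, BCAM, CLIC1, PRSS8, MYOF, SLC44A2 and OSTF1. KRT8 ran from 10208 to 52348 CPM in LB TE cells and from 309 to 3746 in LB EPI cells. GRHL1, a grainyhead transcription factor of epithelia, ran from 63.0 to 499.9 against 0 to 58.1. PRSS8, a membrane protease that activates epithelial sodium channels, ran from 154 to 902 against 0 to 80.6. CLIC1, a chloride channel family protein, ran from 1966 to 13789.9 against 215 to 1259. For 7 genes every LB TE cell lay below every LB EPI cell, namely TDGF1, HELLS, KDM4A, UPP1, SH3BGRL, BCNT2 and LOC515333. TDGF1, the Nodal co-receptor also called Cripto, ran from 0 to 117 CPM in LB TE cells and from 162 to 1268 in LB EPI cells. HELLS, a chromatin remodeller needed for DNA methylation, ran from 11 to 152 against 191 to 1499.8.

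**Figure D1:**
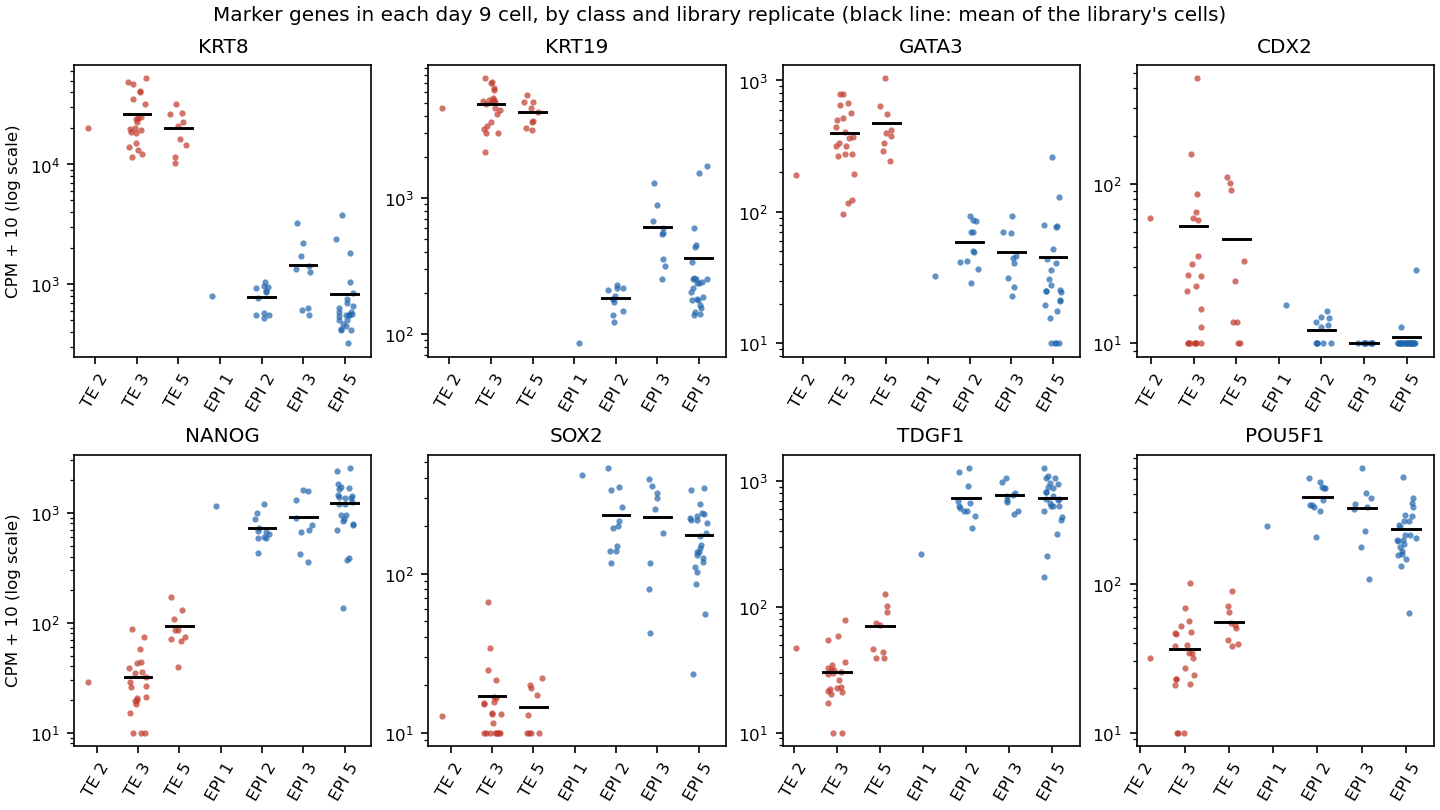
Values of marker genes in single LB TE and LB EPI cells, as CPM + 10 on a log axis, by class and library replicate, with 1 point per cell and a black line at the mean of each library with at least 3 cells. KRT8, KRT19 and GATA3 are high in LB TE cells and NANOG, SOX2, POU5F1 and TDGF1 in LB EPI cells, while CDX2 has no read in a part of the LB TE cells.

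CDX2, the caudal factor that marks trophectoderm in many mammals, was low and uneven between cells. It averaged 44.9 and 35.3 CPM in LB TE and 2.21, 0 and 0.887 in LB EPI (log2 difference 2.19, SE 0.37, adjusted p = 0.000303). A CDX2 read was present in 14 of 21 and 7 of 9 LB TE cells of replicates 3 and 5, and in 6 of 11, 0 of 9 and 2 of 24 LB EPI cells of replicates 2, 3 and 5. With every cell thinned to 50000 reads and shallower cells left out, the shares were 11 of 20 and 6 of 9 against 2 of 11, 0 of 9 and 1 of 20. GATA3 by contrast was read in every LB TE cell, with a lowest, median and highest value of 86.4, 356 and 783 CPM in replicate 3 and 234, 390.2 and 1025 in replicate 5. The LB EPI cells had a GATA3 median of 40.3, 34.6 and 15.3 in replicates 2, 3 and 5. The highest LB EPI cell, at 252 CPM in replicate 5, lay above the lowest LB TE cell. Of the epiblast genes, NANOG kept a low level in LB TE cells, at a lowest, median and highest of 0, 16.6 and 78.2 CPM in replicate 3 and 29.4, 75.8 and 162 in replicate 5, against medians of 663, 761 and 1218 in LB EPI cells. SOX2 reads were found in 13 of 21 and 5 of 9 LB TE cells, 5 of 20 and 2 of 9 after thinning, and in every LB EPI cell of the 3 libraries. LIN28A, the RNA-binding pluripotency protein, was too low to be tested: it had a read in 1 of 21 and 2 of 9 LB TE cells and in 4 of 11, 2 of 9 and 7 of 24 LB EPI cells.

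The 15 largest rises were led by epithelial, transport and placental genes. KRT8, a keratin of simple epithelia and of the trophectoderm, averaged 26444 and 20166 CPM in LB TE and 769, 1427 and 823 in LB EPI (log2 difference 4.55, SE 0.29, adjusted p = 1.45e-08). DAB2, an adaptor of receptor endocytosis, stood at 1189.6 and 1471 against 52, 67.8 and 78.2 (log2 difference 4.15, SE 0.32, adjusted p = 4.8e-08). PTGS2, the inducible cyclooxygenase of prostaglandin synthesis, stood at 1349 and 1913 against 46.8, 113 and 95.5 (log2 difference 4.11, SE 0.44, adjusted p = 3.79e-06). For each of these genes both LB TE averages were more than 10 times the highest LB EPI average. SLC10A1, a sodium and bile acid cotransporter, had 312 and 229.8 against 8.02, 18.3 and 6.21 CPM (log2 difference 3.82, SE 0.44, adjusted p = 4.26e-06), and PLAC8, named for its expression in placenta, 2959 and 4121 against 131, 273 and 259 (log2 difference 3.93, SE 0.30, adjusted p = 2.71e-08). IFI30, a thiol reductase of the lysosome, had 347 and 788 against 21.2, 25.2 and 45.3 (log2 difference 3.76, SE 0.46, adjusted p = 8.9e-06). DNASE1L3, a secreted nuclease, had 459.5 and 175 against 3.91, 31.5 and 7.32 (log2 difference 3.67, SE 0.58, adjusted p = 0.000277), and PAGE4, of a family first known as tumour and testis antigens, 416 and 903 against 7.86, 55.6 and 51.3 (log2 difference 3.69, SE 0.60, adjusted p = 0.000372). In these last genes the LB TE averages of replicates 3 and 5 themselves differed by more than 2-fold. The others of the 15 were KRT18, PAG2, IFNT3, S100A10, FXYD4, PLS1 and CTSL, which follow with their groups. PAGE4 (adjusted p = 0.311) lost the call with the median over cells.

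**Figure D2:**
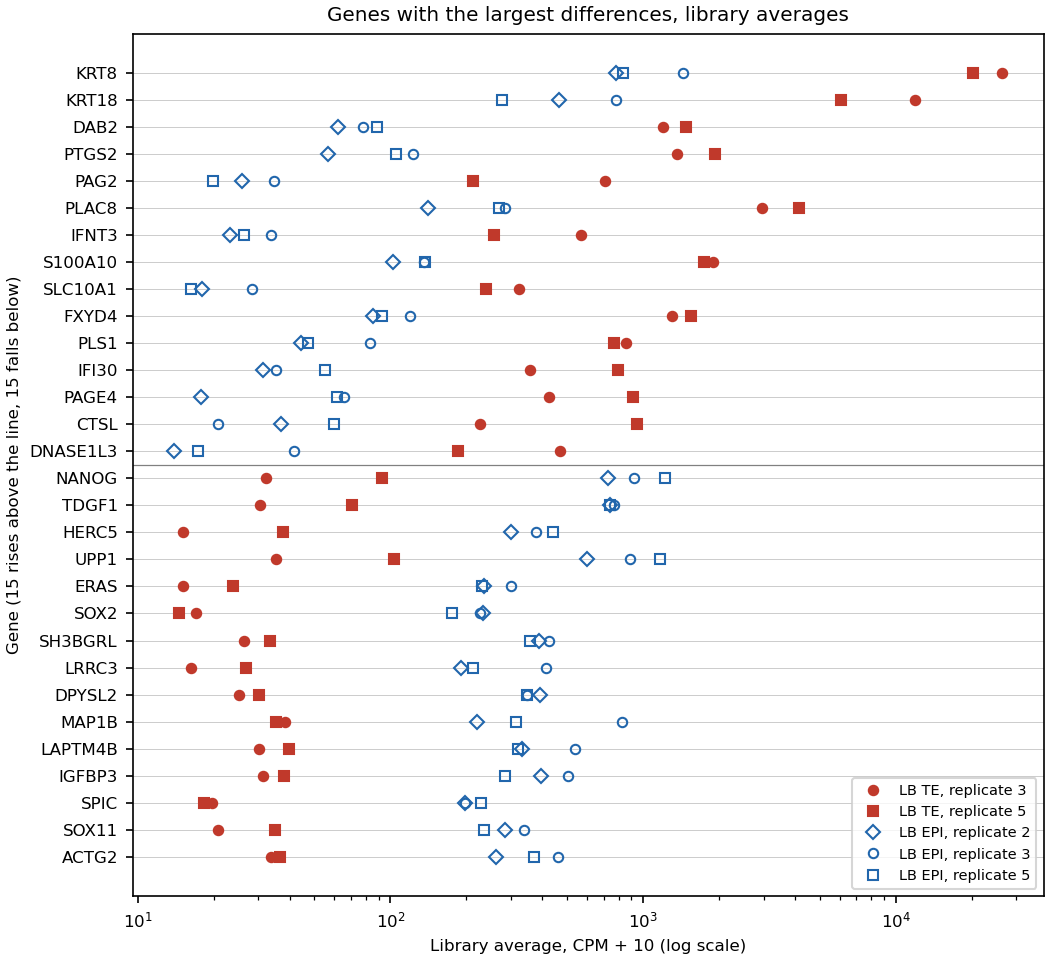
Library averages, as CPM + 10 on a log axis, of the 15 largest rises and the 15 largest falls among called genes, with 2 LB TE and 3 LB EPI averages per gene. The LB TE and LB EPI averages do not overlap for any of the 30 genes.

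The 15 largest falls held pluripotency genes beside cytoskeletal, metabolic and ubiquitin pathway genes. HERC5, a ligase for the ubiquitin-like protein ISG15, averaged 5.03 and 27.7 CPM in LB TE and 290.5, 367 and 432 in LB EPI (log2 difference -3.98, SE 0.42, adjusted p = 1.98e-06). UPP1, a uridine phosphorylase, averaged 25.4 and 93 against 588, 878 and 1153 (log2 difference -3.92, SE 0.71, adjusted p = 0.00155). For both genes every LB EPI average lay far above both LB TE averages. A pair of microtubule regulators fell, DPYSL2 with 15.3 and 20.2 against 381, 338 and 336 (log2 difference -3.68, SE 0.41, adjusted p = 3.65e-06) and MAP1B with 28.1 and 25.2 against 210.1, 817 and 304 (log2 difference -3.53, SE 0.41, adjusted p = 5.96e-06). SH3BGRL, a small thioredoxin-like protein, had 16.2 and 23.3 against 377, 416 and 348 CPM (log2 difference -3.71, SE 0.37, adjusted p = 9.32e-07). LAPTM4B, a membrane protein of late endosomes, had 20.3 and 29.7 against 322, 528 and 311 (log2 difference -3.52, SE 0.37, adjusted p = 1.64e-06), and LRRC3, a leucine-rich repeat protein, 6.29 and 16.7 against 180.5, 404 and 203 (log2 difference -3.68, SE 0.38, adjusted p = 1.41e-06). ACTG2, the gamma actin of smooth muscle, had 23.7 and 26.6 against 251, 451 and 361 (log2 difference -3.41, SE 0.68, adjusted p = 0.00303). SPIC, an ETS family factor, had 9.65 and 8.24 against 188, 187 and 218 (log2 difference -3.46, SE 0.57, adjusted p = 0.000565) and SOX11, a SOX factor best known from neural tissue, 10.8 and 24.9 against 275, 329 and 224 (log2 difference -3.44, SE 0.46, adjusted p = 2.75e-05). The rest were NANOG, TDGF1, ERAS, SOX2 and IGFBP3. Without replicate 3 the call was lost for UPP1 (adjusted p = 0.0564) and ACTG2 (adjusted p = 0.0724).

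**Figure D3:**
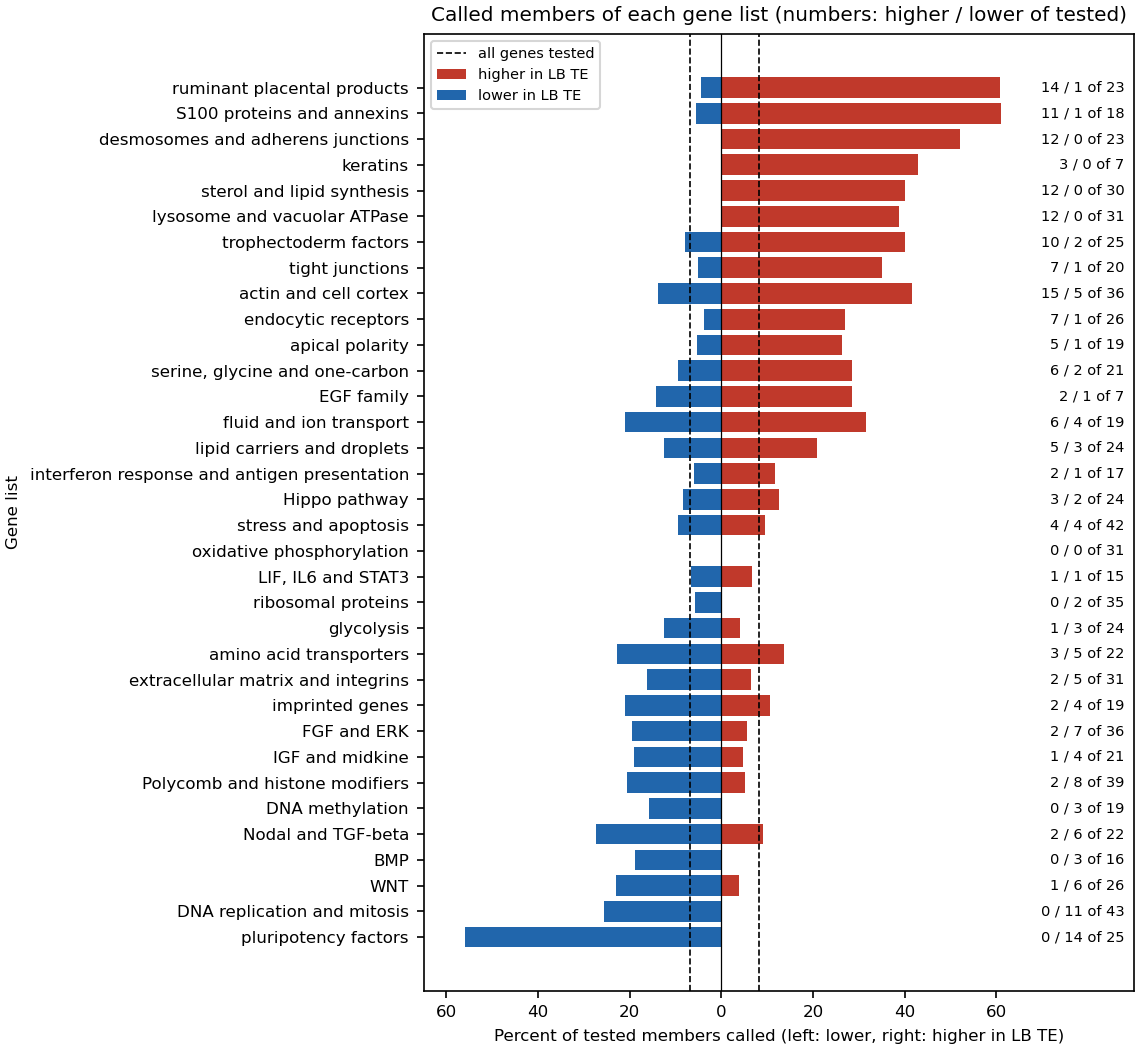
Percent of the tested members of each gene list called higher (bars to the right) or lower (bars to the left) in LB TE than in LB EPI, with the counts at the right edge and dashed lines at the share of all genes tested, 8.27% higher and 6.9% lower. Members called higher dominate in the desmosome, lysosome, sterol, placental and S100 lists, and members called lower in the pluripotency and DNA replication lists.

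Gene lists are described by how many tested members were called, with the median log2 difference beside the -0.04 of all genes. Keratins form the intermediate filaments of epithelia, and 3 of 7 tested members rose (median 0.74), each also called without replicates 2, 3 and 5 in turn. KRT18, the filament partner of KRT8, averaged 11891 and 6065 CPM in LB TE and 457, 772 and 267 in LB EPI (log2 difference 4.20, SE 0.43, adjusted p = 1.11e-05). KRT19, the smallest keratin, averaged 4845 and 4253 against 172, 596 and 349.9 (log2 difference 3.67, SE 0.37, adjusted p = 1.98e-06). KRT7, often used as a trophoblast marker, did not follow them, at 41.5 and 12.9 against 88.5, 27.3 and 50.7 (log2 difference -0.74, SE 0.45, adjusted p = 0.322), and its averages overlapped between the classes.

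Transcription factors of the trophectoderm list rose for 10 of 25 tested members and fell for 2 (median 1.13). Without replicates 2, 3 and 5 in turn 10, 7 and 7 of the rises and 2, 1 and 2 of the falls were called. GATA3, a zinc finger factor of trophectoderm and trophoblast, averaged 389 and 467 CPM in LB TE and 49.5, 39.5 and 35.6 in LB EPI (log2 difference 3.08, SE 0.28, adjusted p = 3.52e-07). GRHL1 averaged 177 and 144 against 9.50, 13.8 and 10.6 (log2 difference 2.96, SE 0.32, adjusted p = 3.04e-06). TEAD3, a DNA-binding partner of the Hippo effector YAP, averaged 64.3 and 63 against 7.64, 10.5 and 9.70 (log2 difference 1.93, SE 0.33, adjusted p = 0.000302), the levels within each class lying close together. Other rises were smaller or lower in level. ELF3, an epithelial ETS factor, stood at 51.5 and 70.5 against 9.39, 9.41 and 6.37 (1.93 ± 0.39, adjusted p = 0.00151), and ELF5, an ETS factor of trophoblast stem cells, at 28.2 and 9.57 against 0.747, 0.990 and 0 (1.38 ± 0.30, adjusted p = 0.00298). DLX3, a homeobox factor of the placenta, stood at 20.3 and 35.2 against 0, 3.09 and 6.67 (1.52 ± 0.30, adjusted p = 0.00128), and ASCL2, an imprinted factor of trophoblast, at 33.7 and 68.2 against 0, 4.79 and 4.48 (2.08 ± 0.49, adjusted p = 0.00671). KLF6 stood at 379 and 306 against 184, 113 and 98.8 (1.46 ± 0.34, adjusted p = 0.00486) and TFAP2A, an AP-2 factor, at 23.7 and 15.7 against 5.48, 2.31 and 1.64 (1.18 ± 0.31, adjusted p = 0.0123). In each bracket the value after ± is the SE of the log2 difference. The calls of ELF3 (adjusted p = 0.0727), ASCL2 (adjusted p = 0.187) and TFAP2A (adjusted p = 0.0834) were lost without replicate 5. KLF6 (adjusted p = 0.117) and TFAP2A (adjusted p = 0.119) were not called without replicate 3. KLF6 (adjusted p = 0.162) lost the call with the median over cells. With a pseudocount of 1 CPM the call was lost for TFAP2A (adjusted p = 0.0759).

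Several well-known trophectoderm regulators were not called in the reported fit. TFAP2C averaged 129.7 and 128 CPM in LB TE and 149.7, 192 and 207 in LB EPI (log2 difference -0.54, SE 0.29, adjusted p = 0.254). TEAD4, which acts upstream of Cdx2 in the mouse, averaged 61.3 and 53.2 against 19, 27.3 and 36.4 (log2 difference 0.87, SE 0.55, adjusted p = 0.343), and was called higher with the compared classes alone (adjusted p = 0.0357) and with limma-voom (adjusted p = 0.0339). GATA2 was uneven between libraries, at 35.7 and 3.40 against 0.424, 2.30 and 0.159 (log2 difference 1.15, SE 0.41, adjusted p = 0.0645), with a read in 19 of 21 LB TE cells of replicate 3 and 3 of 9 of replicate 5. After thinning these shares were 13 of 20 and 2 of 9. GATA2 was called higher under 6 alternatives, among them limma-voom (log2 difference 4.13, adjusted p = 0.00657), a pseudocount of 1 CPM (2.86, adjusted p = 0.0307) and the fit without replicate 5 (1.88, adjusted p = 0.0306). The list's falls were GCM1, a factor of placental syncytium, at 1.14 and 1.99 against 23.8, 24.5 and 33.7 (log2 difference -1.72, SE 0.39, adjusted p = 0.00405), and ID1, a target of BMP signals, at 9.64 and 6.24 against 80.4, 149 and 59.6 (log2 difference -2.45, SE 0.48, adjusted p = 0.00129). The call of ID1 (adjusted p = 0.0791) was lost without replicate 3.

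Desmosome and adherens junction genes were higher in LB TE where they were called. Desmosomes rivet neighbouring epithelial cells to each other's keratin filaments, and 12 of 23 tested members of the list of desmosomes and adherens junctions rose while 11 were not called (median 0.97). Of these rises 11, 8 and 9 were called without replicates 2, 3 and 5 in turn. PERP, a tetraspan protein of desmosomes, averaged 871 and 822 CPM in LB TE and 95, 73.6 and 91.9 in LB EPI (log2 difference 3.15, SE 0.26, adjusted p = 1.14e-07). DSP, the plaque protein desmoplakin, averaged 553 and 534 against 26.1, 72.4 and 37.9 (log2 difference 3.30, SE 0.38, adjusted p = 4.47e-06). The desmosomal cadherins DSC2 and DSG3 had 457 and 343 against 23.3, 57.4 and 32.2 (log2 difference 3.17, SE 0.43, adjusted p = 2.75e-05) and 87.3 and 86.6 against 12.9, 17.2 and 8.20 (log2 difference 2.14, SE 0.38, adjusted p = 0.000427). EVPL, envoplakin, had 47.2 and 41.9 against 0.894, 8.91 and 0.707 (log2 difference 2.03, SE 0.36, adjusted p = 0.000491), and JUP, plakoglobin, 532 and 432 against 116, 189 and 104 (log2 difference 1.80, SE 0.32, adjusted p = 0.000515). EPCAM, an epithelial adhesion protein, was high in both classes, at 544 and 540.1 against 464, 294 and 455 (log2 difference 0.45, SE 0.26, adjusted p = 0.276). CDH1, the epithelial cadherin, had like averages of 11.6 and 14.8 and 11.3, 11.1 and 17.5 (log2 difference -0.03, SE 0.36, adjusted p = 0.994), and the sign of this difference, always below 0.2 in size, turned under several settings.

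Tight junctions seal the epithelium around the cavity. Of 20 tested members 7 rose and 1 fell (median 0.49), with 6, 5 and 5 of the rises called without replicates 2, 3 and 5 in turn. The fall, the scaffold gene MAGI1, was not called under 5 of 20 alternatives (adjusted p up to 0.2). The claudin CLDN6 averaged 3642 and 3962 CPM in LB TE and 892, 467 and 585 in LB EPI (log2 difference 2.63, SE 0.24, adjusted p = 2.99e-07), with the highest LB EPI average in replicate 2. CLDN4 averaged 1029 and 926 against 144, 165 and 95.4 (log2 difference 2.89, SE 0.42, adjusted p = 0.000102) and CLDN23 169 and 186 against 11, 13.2 and 7.62 (log2 difference 3.32, SE 0.43, adjusted p = 1.78e-05). The plaque protein CGN, cingulin, had 124 and 84.8 against 8.69, 19 and 12.1 (log2 difference 2.33, SE 0.45, adjusted p = 0.000982).

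Apical polarity sorts the outward face of an epithelial cell from its sides. Of 19 tested members of that list 5 rose and 1 fell (median 0.67), with 3, 2 and 4 rises called without replicates 2, 3 and 5 in turn. EZR, ezrin, which ties the apical membrane to actin, averaged 2539 and 2683 CPM in LB TE and 373, 379 and 328 in LB EPI (log2 difference 2.81, SE 0.25, adjusted p = 2.99e-07). RAB11FIP1, which carries recycling vesicles to the apical side, averaged 124 and 119 against 13.1, 27.8 and 23.5 (log2 difference 2.08, SE 0.42, adjusted p = 0.00161). The fall was PRKCI, an atypical protein kinase C of the apical PAR complex, at 44.3 and 51.9 against 483, 486 and 545 (log2 difference -3.18, SE 0.35, adjusted p = 3.04e-06), with all 3 LB EPI averages about 10 times the LB TE ones. The Hippo pathway reads cell position through polarity in the mouse embryo. Its list had 3 rises and 2 falls in 24 tested members (median 0.03), shares near those of all genes, and 2, 2 and 3 rises and 1, 1 and 0 falls were called without replicates 2, 3 and 5 in turn. Within it the angiomotins parted: AMOT averaged 111 and 75.5 against 18, 16.1 and 7.93 (log2 difference 2.10, SE 0.37, adjusted p = 0.000455) and AMOTL1 18.5 and 16.4 against 58.1, 107 and 75.5 (log2 difference -1.67, SE 0.37, adjusted p = 0.00312). The effector WWTR1, also called TAZ, had 66.1 and 57 against 63, 80.9 and 74.8 (log2 difference -0.30, SE 0.38, adjusted p = 0.708). AMOTL1 (adjusted p = 0.054) was not called with the median over cells. AMOTL1 (adjusted p = 0.0671) lost the call with a pseudocount of 1 CPM. Without replicate 5 the call was lost for AMOTL1 (adjusted p = 0.0657).

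Genes of the actin cortex rose for 15 of 36 tested members and fell for 5 (median 0.57), with 9, 8 and 7 of the rises and 4, 2 and 1 of the falls called without replicates 2, 3 and 5 in turn. CAPG, which caps actin filaments, averaged 1536 and 1234 CPM in LB TE and 99.6, 179.5 and 97.6 in LB EPI (log2 difference 3.35, SE 0.33, adjusted p = 8.39e-07). PLS1, a plastin that bundles actin in microvilli, averaged 846 and 761 against 34.4, 72.7 and 37.1 (log2 difference 3.80, SE 0.49, adjusted p = 3.08e-05). MYO6, a myosin of endocytic vesicles and microvilli, averaged 149.6 and 163 against 6.82, 6.80 and 9.71 (log2 difference 3.23, SE 0.33, adjusted p = 1.2e-06), and ARPC1B, a subunit of the complex that branches actin, 416 and 386 against 17.7, 38.7 and 22.1 (log2 difference 3.57, SE 0.46, adjusted p = 1.99e-05). TAGLN2, an actin-binding transgelin, had 2088 and 1811 against 422, 503 and 488 (log2 difference 2.02, SE 0.23, adjusted p = 4.1e-06). MYL9, a regulatory light chain of contractile myosin, went the other way, at 48 and 38.6 against 337, 210.5 and 143 (log2 difference -2.03, SE 0.34, adjusted p = 0.00027). Of the S100 proteins and annexins, which bind calcium and membranes, 11 of 18 rose and 1 fell, with the highest median of the lists described here (1.89). Of these rises 11, 10 and 9 were called without replicates 2, 3 and 5 in turn. The fall, the calcium-binding protein gene S100G, was tested in 17 alternatives and not called in 3, with a difference of 0 when the median over cells was taken. S100A10 averaged 1877 and 1728 against 92.8, 125 and 128 (log2 difference 3.86, SE 0.28, adjusted p = 2.71e-08), and its binding partner ANXA2 4227 and 3018 against 561, 734 and 488 (log2 difference 2.61, SE 0.31, adjusted p = 5.79e-06). S100A14 averaged 1450.1 and 1901 against 225, 183 and 296 (log2 difference 2.81, SE 0.28, adjusted p = 1e-06), S100A16 1548 and 1651 against 376, 403 and 375 (log2 difference 2.07, SE 0.31, adjusted p = 9.01e-05) and ANXA1 832 and 511 against 110.2, 117 and 89.5 (log2 difference 2.60, SE 0.37, adjusted p = 5.57e-05). In none of these genes did the averages overlap between classes.

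Fluid transport fills the blastocyst cavity: sodium is pumped across the trophectoderm and water follows. The list of its genes split, with 6 rises and 4 falls in 19 tested members (median 0.14), and 5, 5 and 4 rises and 3, 3 and 3 falls called without replicates 2, 3 and 5 in turn. On the rising side, FXYD4, a regulator of the sodium pump, averaged 1294 and 1545 CPM in LB TE and 75.2, 109.6 and 82.9 in LB EPI (log2 difference 3.81, SE 0.40, adjusted p = 3.22e-06). The pump subunit ATP1B3 averaged 2539 and 2916 against 657, 837 and 875 (log2 difference 1.75, SE 0.24, adjusted p = 3.91e-05). SLC9A3, an apical sodium and proton exchanger, averaged 106 and 91 against 0.703, 13.5 and 2.08 (log2 difference 2.83, SE 0.37, adjusted p = 2.17e-05), and AQP3, a channel for water and glycerol, 62.1 and 80.9 against 14, 9.50 and 9.92 (log2 difference 1.91, SE 0.45, adjusted p = 0.00552). On the falling side, FXYD6 averaged 9.75 and 20.7 against 129, 99.5 and 114 (log2 difference -2.33, SE 0.38, adjusted p = 0.000215). The epithelial sodium channel subunits SCNN1A and SCNN1G had 29.7 and 40.4 against 142, 147 and 162 (log2 difference -1.86, SE 0.33, adjusted p = 0.000436) and 0.781 and 2.83 against 15.2, 22.9 and 38.1 (log2 difference -1.58, SE 0.34, adjusted p = 0.00255). Of the genes shown, FXYD4, ATP1B3, SLC9A3 and AQP3 were thus higher in LB TE, and FXYD6, SCNN1A and SCNN1G in LB EPI. The list's other 9 uncalled members are not described here. The call of AQP3 (adjusted p = 0.0528) was lost with the median over cells. AQP3 (adjusted p = 0.0509) was not called with a pseudocount of 50 CPM. AQP3 (adjusted p = 0.0904) lost the call without replicate 5.

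Endocytic receptors and their machinery rose for 7 of 26 tested members and fell for 1 (median 0.37), with 6, 5 and 5 rises called without replicates 2, 3 and 5 in turn. LRP2, megalin, a large receptor that takes up proteins and vitamins and is sorted by DAB2, averaged 1234 and 1086 CPM in LB TE and 80.4, 186 and 116 in LB EPI (log2 difference 3.15, SE 0.36, adjusted p = 3.92e-06). FOLR1, the folate receptor, averaged 844 and 1027 against 88.3, 74.4 and 129.6 (log2 difference 3.17, SE 0.32, adjusted p = 1e-06). The recycling GTPases RAB25 and RAB11A averaged 224 and 250.1 against 18.4, 30.0 and 13 (log2 difference 3.03, SE 0.40, adjusted p = 1.99e-05) and 1009 and 895 against 221, 288 and 325 (log2 difference 1.74, SE 0.25, adjusted p = 4.69e-05). CAV1, the coat protein of caveolae, was the one fall, at 5.82 and 10.4 against 59.2, 163 and 127 (log2 difference -2.78, SE 0.37, adjusted p = 2.49e-05). Lysosome and vacuolar ATPase genes rose for 12 of 31 tested members and the other 19 were not called (median 1.02). Of these rises 9, 6 and 9 were called without replicates 2, 3 and 5 in turn. The protease CTSL, cathepsin L, averaged 216 and 938 against 27, 10.7 and 50.1 (log2 difference 3.67, SE 0.49, adjusted p = 4.94e-05), its replicate 5 average being more than 4 times that of replicate 3. CTSH averaged 709.6 and 693 against 95.2, 133 and 107 (log2 difference 2.48, SE 0.40, adjusted p = 0.000215) and CTSA 221 and 213 against 37.2, 58.9 and 60.2 (log2 difference 1.88, SE 0.30, adjusted p = 0.000164). Proton pump subunits ATP6V0A4 and ATP6V0C had 419.7 and 338 against 72.9, 60.6 and 48.5 (log2 difference 2.47, SE 0.35, adjusted p = 4.95e-05) and 739 and 1337 against 297, 244 and 303 (log2 difference 1.83, SE 0.28, adjusted p = 0.000117). MCOLN1, a cation channel of lysosomes, had 109 and 92.5 against 20.9, 19.9 and 12 (log2 difference 2.12, SE 0.43, adjusted p = 0.00157). 

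Products of the ruminant placenta rose for 14 of 23 tested members and fell for 1 (median 1.47), with 11, 10 and 13 of the rises called without replicates 2, 3 and 5 in turn. The fall, SSLP1, was not called under 9 of 20 alternatives (adjusted p up to 0.476). PTGS2 was read in every LB TE cell. It ran from 128 to 4123 CPM over the LB TE cells of replicate 3 (median 1181) and from 486 to 2869.7 in replicate 5 (median 2178). PTGES, a prostaglandin E synthase, averaged 192 and 297 in LB TE and 15.5, 27.4 and 31.8 in LB EPI (log2 difference 2.84, SE 0.38, adjusted p = 2.75e-05). PLA2G4A, the phospholipase that frees arachidonic acid, averaged 31.5 and 37.7 against 4.73, 4.32 and 7.00 (log2 difference 1.58, SE 0.33, adjusted p = 0.00187). CYP11A1, which cleaves the cholesterol side chain, averaged 278 and 150.4 against 8.03, 29.2 and 8.53 (log2 difference 3.22, SE 0.62, adjusted p = 0.00166), and HSD3B1, which acts on its product, 210.0 and 124 against 7.72, 16.5 and 7.25 (log2 difference 3.20, SE 0.49, adjusted p = 0.000106). FURIN, a protease that matures secreted proteins, averaged 177 and 131 against 29.5, 30.2 and 22.5 (log2 difference 2.15, SE 0.48, adjusted p = 0.00384). With the median over cells the call was lost for PLA2G4A (adjusted p = 0.106) and FURIN (adjusted p = 0.0695).

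Interferon tau, pregnancy-associated glycoprotein and Kunitz domain genes belong to families of near-identical copies, so the split of reads between copies is uncertain. Their averages rested on few cells. IFNT3 averaged 556 and 247 CPM in LB TE and 13.2, 23.6 and 16.3 in LB EPI (log2 difference 3.92, SE 0.65, adjusted p = 0.000566). A single cell of replicate 3, at 8391 CPM, held 71.9% of the IFNT3 sum over the 21 LB TE cells. The second cell had 509 CPM and the median was 75.3. In replicate 5 the highest of 9 cells had 1758 CPM and 79.2% of the sum, the second 109 and the median cell 67.4. PAG2, a placental protein of the aspartic protease family, averaged 694 and 203 against 15.9, 24.8 and 9.94 (log2 difference 3.95, SE 0.45, adjusted p = 4.38e-06). Its highest cell held 83.9% of the sum in replicate 3, at 12232 CPM, and 83.2% in replicate 5, at 1517 CPM. The cells with most IFNT3 and most PAG2 were different cells in replicate 3 and the same cell in replicate 5. Without the highest cell of each average the log2 difference of IFNT3 was 2.35 (adjusted p = 0.0213) and that of PAG2 1.80 (adjusted p = 0.00677). TKDP1, a trophoblast Kunitz domain protein, averaged 117 and 195 against 0.747, 6.89 and 20.1 (log2 difference 3.15, SE 0.38, adjusted p = 6.45e-06), its highest cell holding 45.2% and 59.1% of the sum. IFNT2 averaged 59.6 and 1.76 against 0, 1.21 and 0.0865 (log2 difference 1.47, SE 0.43, adjusted p = 0.0236) and PAG11 55.4 and 7.78 against 0.407, 2.45 and 0.0865 (log2 difference 1.66, SE 0.43, adjusted p = 0.0113), both far apart between replicates 3 and 5. In replicate 3 the same cell was the highest for IFNT2 and IFNT3. The calls of IFNT3 (adjusted p = 0.198), PAG2 (adjusted p = 0.313), TKDP1 (adjusted p = 0.123), IFNT2 (adjusted p = 0.162) and PAG11 (adjusted p = 0.162) were lost with the median over cells. IFNT2 (adjusted p = 0.0606) was not called with a filter at 50 CPM. IFNT2 (adjusted p = 0.0558) lost the call without the filter on low values. With a pseudocount of 50 CPM the call was lost for IFNT2 (adjusted p = 0.0659). The call of IFNT2 (adjusted p = 0.0838) was lost without replicate 2. PAG11 (adjusted p = 0.253) was not called without replicate 3.

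**Figure D4:**
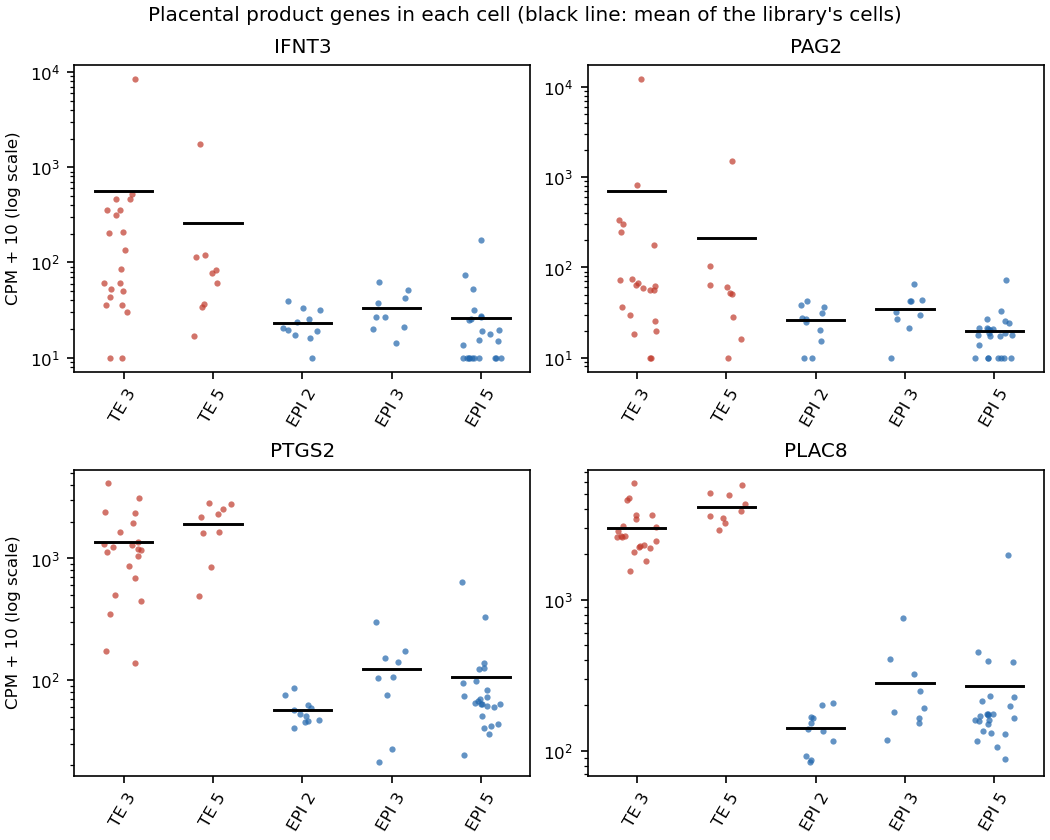
Placental genes in single LB TE and LB EPI cells, as CPM + 10 on a log axis, by class and library replicate, with 1 point per cell and a black line at each library's mean. In IFNT3 and PAG2 a single LB TE cell per library lies more than 10 times above the next, whereas PTGS2 and PLAC8 are high in most LB TE cells.

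Sterol and lipid synthesis genes rose for 12 of 30 tested members, with 18 not called and a median of 1.13. This count rested on replicate 3: of the 12 rises 12, 1 and 12 were called without replicates 2, 3 and 5 in turn. HMGCS1, which makes the precursor of mevalonate, averaged 849.6 and 345 CPM in LB TE and 125, 132 and 46.5 in LB EPI (log2 difference 2.50, SE 0.49, adjusted p = 0.00186). CYP51A1, a lanosterol demethylase, averaged 504 and 325 against 122, 68 and 33.1 (log2 difference 2.60, SE 0.49, adjusted p = 0.0013), and MSMO1, the next oxidase of the pathway, 857 and 386 against 185, 120.2 and 53 (log2 difference 2.48, SE 0.47, adjusted p = 0.00137). IDI1, an isomerase of isoprenoid units, averaged 236 and 147 against 75.3, 23.9 and 25 (log2 difference 2.25, SE 0.45, adjusted p = 0.00166), and FDFT1, squalene synthase, 374 and 185 against 102, 83 and 39.4 (log2 difference 1.84, SE 0.42, adjusted p = 0.0045). In all of these genes the replicate 3 average of LB TE was above that of replicate 5, and the classes did not overlap. CYP51A1 (adjusted p = 0.0503), MSMO1 (adjusted p = 0.0907), IDI1 (adjusted p = 0.0941) and FDFT1 (adjusted p = 0.0635) lost the call without replicate 3. With the median over cells the call was lost for FDFT1 (adjusted p = 0.0837).

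Lipid carriers and droplet genes had 5 rises and 3 falls in 24 tested members (median 0.31), and 5, 4 and 4 rises and 2, 1 and 0 falls were called without replicates 2, 3 and 5 in turn. ACSL3, which activates fatty acids for droplet lipids, averaged 1194 and 919 CPM in LB TE and 179, 135 and 97.3 in LB EPI (log2 difference 2.93, SE 0.31, adjusted p = 2.37e-06). Fatty acid binding proteins parted, with FABP5 at 322 and 321 against 29.6, 42.1 and 51.6 (log2 difference 2.76, SE 0.43, adjusted p = 0.000135) and FABP3 at 68.2 and 111 against 416, 203 and 373 (log2 difference -1.73, SE 0.41, adjusted p = 0.0067). CIDEA, which fuses lipid droplets, stood at 26.9 and 27.8 against 6.00, 0.965 and 2.67 (log2 difference 1.56, SE 0.30, adjusted p = 0.00111). In the list of serine, glycine and one-carbon metabolism 6 of 21 rose and 2 fell (median 0.37), and 4, 1 and 3 rises and 2, 1 and 1 falls were called without replicates 2, 3 and 5 in turn. MTHFD1L, a folate enzyme of mitochondria, averaged 102 and 119 against 37.4, 32.7 and 14.5 (log2 difference 1.73, SE 0.33, adjusted p = 0.00103). AHCY, which removes the by-product of methylation reactions, averaged 236 and 256 against 548, 820.4 and 634 (log2 difference -1.41, SE 0.27, adjusted p = 0.000979) and so was higher in LB EPI. The call of FABP3 (adjusted p = 0.0776) was lost without replicate 5.

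On the epiblast side, 14 of 25 tested pluripotency factors fell in LB TE and 11 were not called (median -1.34), with 12, 8 and 12 of the falls called without replicates 2, 3 and 5 in turn. NANOG, a homeobox factor of the pluripotent state, averaged 22.1 and 82.9 CPM in LB TE and 718, 915 and 1211 in LB EPI (log2 difference -4.13, SE 0.37, adjusted p = 2.99e-07). SOX2, its partner on many enhancers, averaged 6.97 and 4.56 against 222, 217 and 165 (log2 difference -3.74, SE 0.52, adjusted p = 6.8e-05). POU5F1, also called OCT4, averaged 26.3 and 45.6 against 370.1, 309 and 221 (log2 difference -2.75, SE 0.33, adjusted p = 7.83e-06). Reads of all these genes were present in LB TE, and each LB TE average stayed below the lowest LB EPI average. ERAS, a Ras protein of embryonic stem cells, averaged 5.09 and 13.7 against 224, 289 and 221 (log2 difference -3.80, SE 0.43, adjusted p = 4.1e-06), and KLF17, a factor of the naive state, 3.14 and 2.21 against 55.8, 52.5 and 46.5 (log2 difference -2.28, SE 0.34, adjusted p = 6.92e-05). UTF1 averaged 56.8 and 48.4 against 374, 163 and 177 (-1.80 ± 0.40, adjusted p = 0.00335), OTX2, a homeobox factor of the primed epiblast, 12.4 and 14.6 against 72.4, 59 and 107 (-1.90 ± 0.42, adjusted p = 0.00297), and DPPA4 137 and 128 against 245, 357 and 443 (-1.34 ± 0.32, adjusted p = 0.00553). SALL4 averaged 80.9 and 56.4 against 243, 238 and 195 (-1.65 ± 0.45, adjusted p = 0.0162) and LIN28B, which blocks the let-7 microRNAs, 6.83 and 13.3 against 84.1, 58.1 and 53.4 (-1.81 ± 0.40, adjusted p = 0.00343). Some factors named with the naive state did not differ by the test: ESRRB had 25.8 and 24.3 against 16.5, 19.1 and 8.25 (0.52 ± 0.37, adjusted p = 0.401) and TFCP2L1 75.8 and 65.4 against 49.6, 50.9 and 53.6 (0.36 ± 0.32, adjusted p = 0.532). OTX2 (adjusted p = 0.134) and SALL4 (adjusted p = 0.153) were not called with the median over cells. DPPA4 (adjusted p = 0.0643) and LIN28B (adjusted p = 0.0795) lost the call without replicate 3. Without the filter on low values the call was lost for SALL4 (adjusted p = 0.0507). The call of SALL4 (adjusted p = 0.064) was lost without replicate 2. DPPA4 (adjusted p = 0.13) was not called without replicate 5.

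Among signalling lists, Nodal and TGF-beta had 2 rises and 6 falls in 22 tested members (median -0.46), with 4, 4 and 5 falls called without replicates 2, 3 and 5 in turn. Nodal signals through activin receptors and the co-receptor TDGF1. TDGF1 averaged 20.5 and 60.4 CPM in LB TE and 727, 759 and 729 in LB EPI (log2 difference -4.00, SE 0.54, adjusted p = 5.54e-05), with the LB EPI averages close to each other. The ligand GDF3 averaged 11 and 21.6 against 154, 152 and 150.1 (log2 difference -2.68, SE 0.41, adjusted p = 9.27e-05), and the receptor ACVR1B 5.04 and 4.40 against 41.9, 26.8 and 41.6 (log2 difference -1.64, SE 0.32, adjusted p = 0.00118). SKIL, a SMAD repressor that Nodal itself induces, averaged 16.8 and 23.4 against 129, 226 and 158 (log2 difference -2.61, SE 0.37, adjusted p = 4.95e-05). TGFBR3, betaglycan, rose, at 40.8 and 32.6 against 4.89, 2.26 and 2.64 (log2 difference 1.80, SE 0.36, adjusted p = 0.00155). The BMP list had 3 falls in 16 tested members (median -0.39), 2, 1 and 3 of them called without replicates 2, 3 and 5 in turn. The ligand BMP4 averaged 9.29 and 0.50 against 34.1, 68.4 and 15.8 (log2 difference -1.65, SE 0.45, adjusted p = 0.0142) and the transducer SMAD9 0.147 and 2.16 against 27, 19.4 and 10.9 (log2 difference -1.33, SE 0.26, adjusted p = 0.00139). BMP4 (adjusted p = 0.127) lost the call with the median over cells. Without the filter on low values the call was lost for BMP4 (adjusted p = 0.0523). The call of BMP4 (adjusted p = 0.0537) was lost without the library block. BMP4 (adjusted p = 0.0519) was not called without replicate 2. SMAD9 (adjusted p = 0.0941) lost the call without replicate 3.

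WNT pathway genes fell for 6 of 26 tested members and rose for 1 (median -0.09), with 5, 2 and 3 falls called without replicates 2, 3 and 5 in turn. The rise was WLS, which carries WNT proteins to the surface, and was not called under 5 of 20 alternatives (adjusted p up to 0.119). Of the factors that end the pathway, TCF7L1 and TCF7L2 were lower in LB TE, and the related LEF1 and TCF7 are not reported here. TCF7L1, a repressor in pluripotent cells, averaged 40.1 and 39.8 CPM against 221, 241 and 189 in LB EPI (log2 difference -2.24, SE 0.36, adjusted p = 0.000172). TCF7L2 averaged 29.7 and 28.6 against 138, 393 and 191 (log2 difference -2.58, SE 0.41, adjusted p = 0.000143). FGF and ERK genes fell for 7 of 36 and rose for 2 (median -0.50), with 7, 3 and 3 falls and 1, 0 and 1 rises called without replicates 2, 3 and 5 in turn. The rises were IER3, not called under 1 of 20 alternatives (adjusted p = 0.0947), and the kinase MAP2K1, not called under 10 of 20 alternatives (adjusted p up to 0.258). The ligand FGF2 was at 0.146 and 0 in LB TE and 10.9, 9.92 and 23.7 in LB EPI (log2 difference -1.25, SE 0.26, adjusted p = 0.00225). The ligand FGF19 was at 1.12 and 1.61 against 16.3, 25.3 and 31.8 (log2 difference -1.56, SE 0.31, adjusted p = 0.00119). Of the feedback inhibitors that ERK induces, DUSP6, SPRY2 and SPRY4 were higher in LB EPI, and the list's others are not reported here. DUSP6 averaged 27.3 and 46 against 132, 78.1 and 153 (log2 difference -1.43, SE 0.35, adjusted p = 0.00665). SPRY2 averaged 12.8 and 11.8 against 54.5, 47.6 and 51.2 (log2 difference -1.38, SE 0.37, adjusted p = 0.0134). SPRY4 averaged 8.41 and 19.5 against 38.1, 33.9 and 127 (log2 difference -1.50, SE 0.42, adjusted p = 0.0162). With the median over cells the call was lost for FGF2 (adjusted p = 0.0934), DUSP6 (adjusted p = 0.058) and SPRY4 (adjusted p = 0.107). The calls of FGF19 (adjusted p = 0.0617), SPRY2 (adjusted p = 0.113) and SPRY4 (adjusted p = 0.116) were lost without replicate 3. FGF2 (adjusted p = 0.117), SPRY2 (adjusted p = 0.14) and SPRY4 (adjusted p = 0.112) were not called without replicate 5. SPRY4 (adjusted p = 0.0744) lost the call with a pseudocount of 1 CPM.

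IGF and midkine genes fell for 4 of 21 tested members and rose for 1 (median -0.54), with 3, 2 and 3 falls called without replicates 2, 3 and 5 in turn. The rise, the syndecan SDC1, was not called under 8 of 20 alternatives (adjusted p up to 0.334). IGFBP3, which binds insulin-like growth factors, averaged 21.3 and 28 CPM in LB TE and 384, 496 and 274 in LB EPI (log2 difference -3.48, SE 0.39, adjusted p = 3.44e-06). The growth factor MDK, midkine, averaged 42.4 and 46 against 175, 197 and 190.0 (log2 difference -1.87, SE 0.32, adjusted p = 0.000395), and the glypican GPC4 6.21 and 17.7 against 58.8, 148 and 132 (log2 difference -2.58, SE 0.57, adjusted p = 0.00397). Of the LIF, IL6 and STAT3 list 1 of 15 rose and 1 fell (median -0.35), the rise being the receptor IL11RA, not called under 2 of 19 alternatives (adjusted p up to 0.231), and the fall the kinase JAK1 at 19.3 and 27.3 against 74.4, 201 and 129.7 (log2 difference -2.10, SE 0.39, adjusted p = 0.000702). The shares called in the LIF, IL6 and STAT3 list were near the 8.27% higher and 6.9% lower of all genes tested. In the EGF family 2 of 7 rose, the receptor EGFR and the ligand HBEGF, and 1 fell, the receptor ERBB3 (median 0.67). Of these EGF family calls 1, 0 and 0 rises and 1, 0 and 0 falls remained without replicates 2, 3 and 5 in turn. EGFR was not called under 10 of 20 alternatives (adjusted p up to 0.25), HBEGF under 5 of 20 alternatives (adjusted p up to 0.229) and ERBB3 under 6 of 20 alternatives (adjusted p up to 0.21). Without replicate 3 the call was lost for GPC4 (adjusted p = 0.186).

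Chromatin genes were mostly lower in LB TE where they were called. The list of Polycomb and histone modifiers had 8 falls and 2 rises in 39 tested members (median -0.47), with 6, 6 and 7 falls and 2, 1 and 1 rises called without replicates 2, 3 and 5 in turn. JARID2, which recruits Polycomb complex PRC2, averaged 21.3 and 29.9 CPM in LB TE and 214, 543 and 252 in LB EPI (log2 difference -3.26, SE 0.47, adjusted p = 9.11e-05). KDM2B, which recruits a PRC1 complex to CpG islands, averaged 20.6 and 20.5 against 189, 278 and 219 (log2 difference -2.96, SE 0.37, adjusted p = 1.12e-05). The demethylase KDM4A averaged 22.6 and 34.6 against 295, 308 and 234 (log2 difference -2.88, SE 0.38, adjusted p = 2.3e-05). Deacetylases HDAC8 and HDAC2 had 5.85 and 12.8 against 104, 81.4 and 71.7 (log2 difference -2.30, SE 0.34, adjusted p = 8.73e-05) and 49 and 60.3 against 223, 137 and 208 (log2 difference -1.65, SE 0.37, adjusted p = 0.00343). The remodeller CHD7 rose, at 61.9 and 50.3 against 3.48, 12.1 and 1.32 (log2 difference 2.11, SE 0.49, adjusted p = 0.00461). The DNA methylation list had 3 falls in 19 tested members (median -0.33), of which 3, 2 and 3 were called without replicates 2, 3 and 5 in turn. HELLS averaged 60.1 and 94.9 against 484, 797 and 713 (log2 difference -3.01, SE 0.28, adjusted p = 5.47e-07), and TRIM28, which guards imprints and silences repeats, 369.6 and 343 against 1071, 1135 and 836 (log2 difference -1.49, SE 0.27, adjusted p = 0.000548). DNMT3B, a de novo methyltransferase, averaged 171 and 196 against 849, 1463 and 1074 (log2 difference -2.65, SE 0.56, adjusted p = 0.00458). Its relative DNMT3A overlapped between classes, at 1259 and 1467 against 524, 1366 and 631 (0.73 ± 0.34, adjusted p = 0.175), as did the dioxygenase TET1, at 241 and 346 against 172, 216 and 335 (0.28 ± 0.35, adjusted p = 0.705). DNMT3A was called higher in LB TE with limma-voom (adjusted p = 0.0325) and without replicate 3 (adjusted p = 0.0399). The calls of KDM4A (adjusted p = 0.0629) and HDAC2 (adjusted p = 0.119) were lost with the median over cells. DNMT3B (adjusted p = 0.0863) was not called without replicate 3.

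DNA replication and mitosis genes fell for 11 of 43 tested members and 32 were not called (median -0.61), with 7, 5 and 6 falls called without replicates 2, 3 and 5 in turn. TOP2A, the topoisomerase of dividing cells, averaged 234 and 468 CPM in LB TE and 2388, 1926 and 3065 in LB EPI (log2 difference -2.90, SE 0.33, adjusted p = 4.46e-06). GINS2, a subunit of the replicative helicase, averaged 76.2 and 128 against 364, 353 and 371 (log2 difference -1.76, SE 0.30, adjusted p = 0.000303). Its partners MCM5 and MCM2 had 123 and 114 against 275, 362 and 278 (log2 difference -1.30, SE 0.26, adjusted p = 0.00166) and 127 and 89.7 against 310.1, 361 and 269 (log2 difference -1.41, SE 0.32, adjusted p = 0.00397), and the sliding clamp PCNA 142 and 177 against 407, 390.3 and 378 (log2 difference -1.24, SE 0.27, adjusted p = 0.00276). All of these genes were read in LB TE too, at lower averages than in any LB EPI library. PCNA (adjusted p = 0.0784) lost the call without replicate 3. Without replicate 5 the call was lost for MCM2 (adjusted p = 0.103).

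In metabolism, glycolysis genes had 1 rise and 3 falls in 24 tested members (median -0.17), and 3, 2 and 3 falls were called without replicates 2, 3 and 5 in turn. PGAM1, a phosphoglycerate mutase, averaged 641 and 767 CPM in LB TE and 2135, 4058 and 2407 in LB EPI (log2 difference -1.99, SE 0.25, adjusted p = 1.38e-05), and HK1, a hexokinase, 54 and 60.1 against 185, 246 and 249 (log2 difference -1.86, SE 0.29, adjusted p = 0.00011). SLC16A1, a carrier of lactate and pyruvate, rose, at 325 and 413 against 139, 93.1 and 165 (log2 difference 1.45, SE 0.29, adjusted p = 0.00133). Of 31 tested genes of oxidative phosphorylation limma called 0, with 1 rise at an unadjusted p under 0.05 and 1 rise by limma-voom (median 0.14). Ribosomal protein genes summed to 73984 and 68990.5 CPM in LB TE and 90142, 88295 and 93030 in LB EPI. At an unadjusted p under 0.05 limma had 6 of them lower and 0 higher in LB TE, and limma-voom called 6 lower and 0 higher. Of 35 ribosomal protein genes 2 were called lower, RPL14 and RPS2, a smaller share than the 6.9% of all genes tested (median -0.35), and 1, 0 and 0 of these were called without replicates 2, 3 and 5 in turn. RPL14 was not called under 2 of 20 alternatives (adjusted p up to 0.0981) and RPS2 under 9 of 20 alternatives (adjusted p up to 0.184). Amino acid transporters had 3 rises and 5 falls in 22 (median -0.25), and 3, 2 and 3 rises and 4, 1 and 1 falls were called without replicates 2, 3 and 5 in turn. 

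Stress and apoptosis genes had 4 rises and 4 falls in 42 tested members (median 0.08), shares near the 8.27% and 6.9% of all genes tested, and 3, 1 and 1 rises and 3, 1 and 2 falls were called without replicates 2, 3 and 5 in turn. DDIT4, a stress-induced inhibitor of mTOR, averaged 26.6 and 27 CPM in LB TE and 179.7, 458 and 204 in LB EPI (log2 difference -2.87, SE 0.48, adjusted p = 0.000311), and TXN, thioredoxin, 819.5 and 1606 against 253, 179 and 316 (log2 difference 2.18, SE 0.32, adjusted p = 5.86e-05). Interferon response and antigen presentation genes had 2 rises and 1 fall in 17 (median -0.10), and 2, 1 and 1 rises and 1, 1 and 1 falls were called without replicates 2, 3 and 5 in turn. The shares called in this interferon list were also near those of all genes tested. The fall was HERC5, and among the rises TAP1, a peptide transporter, averaged 36.7 and 40.3 against 3.29, 2.07 and 1.76 (log2 difference 2.07, SE 0.42, adjusted p = 0.0018). Imprinted genes had 2 rises and 4 falls in 19 tested members (median -0.54), and 2, 1 and 0 rises and 3, 0 and 1 falls were called without replicates 2, 3 and 5 in turn. Among the falls was NNAT, neuronatin, at 58 and 65 against 158, 858 and 700.3 (log2 difference -2.94, SE 0.75, adjusted p = 0.0146). Extracellular matrix and integrin genes had 2 rises and 5 falls in 31 (median -0.25), and 2, 1 and 1 rises and 4, 2 and 1 falls were called without replicates 2, 3 and 5 in turn. SPARC, a secreted matrix protein, averaged 87.2 and 159 against 761, 429 and 887 (log2 difference -2.36, SE 0.39, adjusted p = 0.000274). The call of NNAT (adjusted p = 0.133) was lost with the median over cells. NNAT (adjusted p = 0.0552) was not called without the library block. NNAT (adjusted p = 0.148) lost the call without replicate 3. Without replicate 5 the call was lost for NNAT (adjusted p = 0.0567).

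Markers of other cell types were read in the same averages. The summed level of the 28 hypoblast markers in the table was 2307 and 2457 CPM in LB TE and 2609, 1969 and 2477 in LB EPI, against 11068 and 8813 in LB PE, the primitive endoderm class of the same day. The list holds DAB2, also a fixed trophectoderm marker, whose LB TE averages given above make up a large part of the LB TE sums. In LB EPI DAB2 stood at 5.70% and 5.32% of its LB TE average in replicates 3 and 5. The like sums of LB TE and LB EPI thus do not show like levels of the other hypoblast markers. Of 23 tested members 2 were called higher and 5 lower in LB TE. Without replicates 2, 3 and 5 in turn, 2, 1 and 2 of the rises and 4, 4 and 3 of the falls were called. SOX17, a defining hypoblast factor, was at 0 in every LB TE and LB EPI cell. Its LB PE level is not given here, so these values of 0 do not tell whether the assay reads SOX17. PDGFRA, a growth factor receptor of hypoblast, had 333 and 265 CPM in LB PE. The LB TE averages of PDGFRA were 10.6 and 7.52, and its LB EPI averages were 11.7, 24.3 and 23.7. The secreted WNT enhancer RSPO3 had 232 and 193 in LB PE, where LB TE had 7.43 and 4.36 and LB EPI 8.01, 3.73 and 9.18. For the factor GATA4 the LB PE averages were 40.7 and 20.1, those of LB TE 1.29 and 1.61 and those of LB EPI 0.813, 3.02 and 4.15. For these 3 genes every LB TE and LB EPI average lay below every LB PE average. The collagen COL4A1 had 409 and 252 in LB PE, 27.2 and 17.6 in LB TE, and 59, 61.1 and 31.4 for LB EPI. The members called higher in LB TE were DAB2 and GATA6, and those called lower were COL4A2, FN1, HNF4A, OTX2 and SPARC. COL4A2 was not called under 6 of 20 alternatives (adjusted p up to 0.112). COL4A1 was called lower in LB TE with the compared classes alone (adjusted p = 0.0367). GATA6 was higher in LB TE, at 119.7 and 129.8 against 27.3, 42 and 57.9 (log2 difference 1.37, SE 0.37, adjusted p = 0.0129), and had 533 and 259.7 in LB PE. HNF4A was lower in LB TE, at 14.3 and 18.6 against 144, 252 and 179 (log2 difference -2.91, SE 0.33, adjusted p = 3.74e-06), and its LB PE averages of 184 and 174 overlapped those of LB EPI. FN1, fibronectin, was also lower in LB TE, at 283 and 206 against 756, 434 and 624 (log2 difference -1.24, SE 0.28, adjusted p = 0.00349), with 4472 and 4714 in LB PE. The call of FN1 (adjusted p = 0.0913) was lost with limma-voom. FN1 (adjusted p = 0.0647) was not called with the median over cells. GATA6 (adjusted p = 0.0539) lost the call with a pseudocount of 50 CPM. Without replicate 3 the call was lost for GATA6 (adjusted p = 0.118). The call of FN1 (adjusted p = 0.185) was lost without replicate 5.

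Genes of cell types outside the embryo were low. The summed level of oocyte transcripts was 62.2 and 90.2 CPM in LB TE and 156, 79.0 and 123 in LB EPI. That of cumulus and granulosa genes was 303 and 166 against 41.7, 65.0 and 101, a list that holds CYP11A1, which trophoblast also expresses. Sperm genes summed to 14.2 and 20.7 against 5.73, 2.27 and 8.50, and blood genes to 34.4 and 3.93 against 9.82, 49.8 and 12.9. Fibroblast genes summed to 246 and 228 against 404, 699.9 and 694. Limma called 0 of the tested oocyte (16), fibroblast (10) and blood (4) genes. At an unadjusted p under 0.05 this was 3 fibroblast genes, lower in LB TE, and 0 oocyte and blood genes, and limma-voom called 2, 0 and 0. In the cumulus list CYP11A1 was called higher and TNFAIP6 lower, the latter not under 4 of 20 alternatives (adjusted p up to 0.404). In the sperm list CRISP2 was called higher, but not under 9 of 19 alternatives (adjusted p up to 0.221), and limma-voom called 0. The part of these cell types in the results was not tested.

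Low levels of the other class's genes were set beside the makeup of the library. For the 15 largest falls the LB TE average as a percent of the LB EPI average of the same library had a median of 3.28 in replicate 3 and 7.36 in replicate 5, and was higher in replicate 5 for 13 of the 15. LB EPI cells held 22.3% of the reads of replicate 3 and 55.6% of those of replicate 5. For the 15 largest rises the LB EPI average as a percent of the LB TE average had a median of 6.67 in replicate 3 and 5.32 in replicate 5, and was higher in replicate 5 for 4 of the 15. LB TE cells held 57.9% and 25.1% of the reads. In replicate 2 LB TE and MB TE cells held 7.62% and 37.9% of the reads, and the LB EPI averages of KRT8 (769 CPM), KRT19 (172) and PLAC8 (131) were below those of replicate 5 (823, 349.9 and 259), where LB TE and MB TE cells held 25.1% and 2.12%. The 4 LB EPI cells of replicate 5 under 50000 reads raised its averages, while the shallowest LB EPI cell of replicate 2 had 94337 reads. In the 20 deeper LB EPI cells of replicate 5 the means of KRT8, KRT19 and PLAC8 were 540, 209 and 152 CPM. KRT8 was then below its replicate 2 average, and KRT19 and PLAC8 were still above theirs. Whether low levels follow the makeup of the library was not tested. In these libraries low levels of the other class's genes, such as NANOG in LB TE or KRT8 in LB EPI, cannot be told apart from reads of other cells of the library.

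Depth also moved with the marker levels of single LB EPI cells. In replicate 5 the 4 LB EPI cells under 50000 reads (15884 to 47131 reads) had the 4 highest KRT8 values, 1023 to 3746 CPM, against 309 to 833 in the 20 deeper cells. For PLAC8 they had 377 to 1974 CPM against 79.0 to 222. NANOG was 126 to 785 CPM in these 4 cells and 689 to 2564 in the others. Without cells under 50000 reads the log2 difference was 4.79 for KRT8, 4.20 for PLAC8 and -4.16 for NANOG, so the differences were no smaller without them.

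Single cells that entered no average were set beside the averages that gave the calls, so the shares below are descriptive and no independent check. The sources used here do not say how the classes of these cells were set. The only LB TE cell of replicate 2, with 747345 reads, was above the LB EPI average of its library for 924 of the 1037 rises (89.1%) and below it for 860 of the 865 falls (99.4%). Among the 10638 genes not called it was above for 29.9% and below for 63.3%. It had 20315 CPM of KRT8, 50.8 of CDX2, 18.7 of NANOG and 37.5 of TDGF1. The only LB EPI cell of replicate 1, with 133815 reads, was below the mean of the LB TE averages for 970 of the 1037 rises (93.5%). It was above that mean for 603 of the 865 falls (69.7%). Among the genes not called it was below for 62.2% and above for 34.3%. It had 785 CPM of KRT8, 1151 of NANOG and 404 of SOX2. Each is 1 cell, and single cells miss transcripts that an average over cells holds, so these shares carry no test.

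The difference on day 9 was set against that between the day 8 classes MB TE and MB ICM, the trophectoderm and inner cell mass of 88 other cells. This asks which genes part the lineages by a different amount on day 9, when the inner cells have become epiblast or hypoblast. Of 12540 genes tested 46 (0.367%) differed between the days, 27 (0.215%) with a higher and 19 (0.152%) with a lower log2 difference on day 9. MB TE averages came from replicates 1, 2 and 3 and MB ICM averages from replicates 1, 2 and 5, and are printed in that order. These calls rested on few libraries: without replicate 3 limma called 0 genes, with 770 at an unadjusted p under 0.05 (6.46% of 11928) and the smallest adjusted p at 0.0562.

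Among the genes with a larger difference on day 9 were FOLR1, MPZL2, MOGAT1 and SLC6A20. FOLR1, at 844 and 1027 CPM in LB TE and 88.3, 74.4 and 129.6 in LB EPI, had 1078, 918 and 797 in MB TE and 827, 835 and 768 in MB ICM (difference of the differences 2.87, SE 0.43, adjusted p = 0.00232). All day 8 averages were thus near the level of LB TE, and LB EPI stood alone as low. Here and below, a class stands alone among LB TE, LB EPI, MB TE and MB ICM, since LB PE levels are not given in this comparison. MPZL2, an adhesion protein of epithelia, had 194 and 262 and 27.7, 18.4 and 25.7 on day 9 and 300.2, 186 and 326 and 329, 252 and 321 on day 8 (difference of the differences 2.95, SE 0.42, adjusted p = 0.00194), the same order of levels. MOGAT1, an acyltransferase of lipid synthesis, had 93.6 and 132 and 9.46, 10.4 and 19.8 on day 9 and 11.3, 14.4 and 3.11 and 19.8, 11.3 and 9.51 on day 8 (difference of the differences 2.66, SE 0.47, adjusted p = 0.0123), so here LB TE stood alone as high. SLC6A20, a proline transporter, had 101 and 105 and 23.4, 19 and 28.9 on day 9 and 27, 49.2 and 77.2 and 114, 246 and 131 on day 8 (difference of the differences 3.31, SE 0.48, adjusted p = 0.00223), with opposite signs of the difference on the 2 days.

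Among the genes with a lower difference on day 9 were TDGF1, ERAS, LRRC3, GLUD1 and DUSP6. TDGF1 had 0.683, 22 and 37.6 CPM in MB TE and 4.01, 54.3 and 41.7 in MB ICM, far below its LB EPI averages (difference of the differences -3.56, SE 0.73, adjusted p = 0.0385). ERAS had 6.57, 4.93 and 29.3 and 2.16, 15.7 and 23.5 on day 8 (difference of the differences -3.78, SE 0.58, adjusted p = 0.00329), and LRRC3 1.58, 3.88 and 13.8 and 1.52, 2.40 and 5.53 (difference of the differences -3.91, SE 0.51, adjusted p = 0.000972). In these genes both day 8 classes were near the LB TE level, and among the classes compared LB EPI stood alone as high. GLUD1, glutamate dehydrogenase, had 141 and 147 and 1218, 809.9 and 979 on day 9 and 418, 409 and 295 and 286, 410.3 and 361 on day 8 (difference of the differences -2.77, SE 0.35, adjusted p = 0.000972), the day 8 averages lying between the day 9 classes. DUSP6 had 85.7, 78.4 and 52.5 and 35.4, 43 and 25.6 on day 8 (difference of the differences -2.40, SE 0.47, adjusted p = 0.0267), with the higher level in the trophectoderm class on day 8 and in the epiblast class on day 9. Without replicate 3 none of these kept the call, with adjusted p of 0.0593 for LRRC3, 0.0562 for GLUD1, FOLR1 and MPZL2, 0.0657 for SLC6A20, 0.308 for ERAS, 0.224 for MOGAT1, 0.166 for DUSP6 and 0.613 for TDGF1. Day 8 inner cell mass holds precursors of both epiblast and hypoblast, and the library averages of days 8 and 9 come in part from different libraries.

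**Figure D5:**
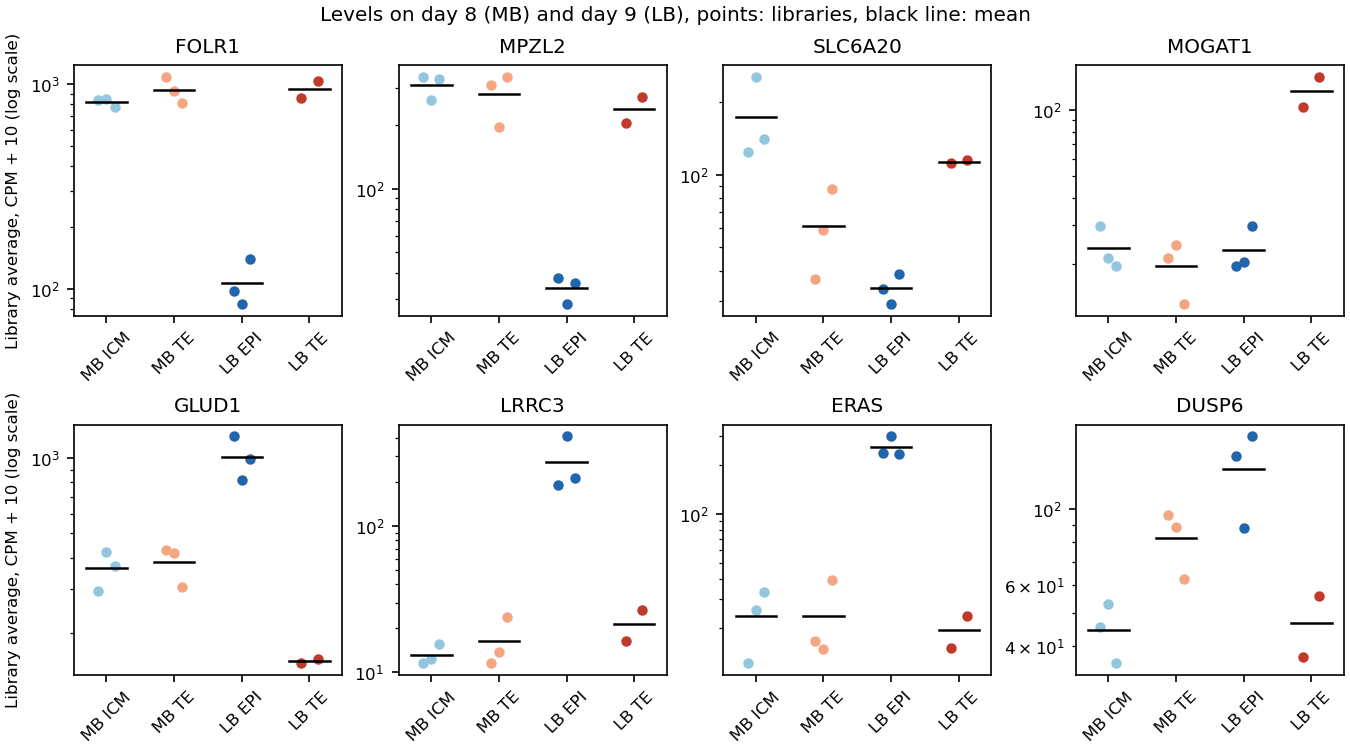
Library averages of 8 genes, as CPM + 10 on a log axis, in MB ICM and MB TE on day 8 and in LB EPI and LB TE on day 9, with 1 point per library and a black line at the class mean. For FOLR1, MPZL2, GLUD1, LRRC3 and ERAS the day 8 classes overlap, whereas on day 9 LB TE and LB EPI lie apart.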

How the data were processed

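Polyadenylated RNA of single bovine embryo cells was measured in 6 wildtype libraries. Per the labels' protocols, lysed cells were reverse transcribed from oligo(dT), amplified with a barcode each, pooled and sheared. Per the submitters' processing notes, the genome build was ARS-UCD1.2 and the tools included Trim Galore, HISAT2, featureCounts and also Seurat (versions not stated). The sources used here do not say whether molecular identifiers were counted or how cells were given classes. The authors deposited natural log values, ln(1 + reads per 10000), for 18825 genes in 286 cells, and a cell table that lists 288 cells, of which 2 have no values. With the log undone, 100% of each cell's values were whole multiples of a cell's smallest step, within 0.1 reads, which gave each cell's reads (48628984 in all).

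Values were scaled to 1000000 reads per cell (CPM) and averaged per library and class of at least 3 cells, 16 averages of 7 classes. Averages were transformed as log2(CPM + 10). Genes reaching 10 CPM in at least 1 average were tested (12540). A model over all 7 classes was fitted with limma 3.58.1 (trend and robust options) in R 4.3.3, with statmod 1.5.0 and data.table (1.17.8). Library was a random block, since averages from 1 library deviated together (consensus correlation 0.18). Adjustment over all genes tested followed Benjamini and Hochberg, with calls at an adjusted p under 0.05. All adjusted p-values are from limma, and the script was tested on simulated data. No value was imputed.

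Named genes were the 15 largest rises and 15 largest falls with a symbol and the same sign in both libraries, up to 4 members of each of 40 lists (1093 genes, 1007 in the table), up to 8 genes per direction of the comparison between days, and fixed markers. Other list members may be named, and genes outside the rule are said to be so. Some genes of the rule and lists are not reported here. The members and lists were chosen with earlier results of these data known. Alternatives changed the pseudocount, filter, block, cell minimum, scaling, model and samples. Leaving out the highest cell and taking the median over cells were chosen after seeing the data. The 2 libraries of embryos injected with base editor RNA were not analysed here. A gene table of ARS-UCD2.0 matched 17114 symbols and was used for names alone, and no sequences were used.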

Additional observations from a re-analysis of the deposited data

Results flagged for a closer look

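The genes below were picked out because their trophectoderm minus inner cell log2 difference differed between day 9 (LB TE minus LB EPI) and day 8 (MB TE minus MB ICM) by an interaction contrast in limma. Each value is the day 9 minus day 8 difference ± SE. None of the 22 genes named kept the call without replicate 3, and their cause was not tested.

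Larger values on day 9 were found for CD38 (3.39 ± 0.60, adjusted p = 0.0123), PHGDH (3.66 ± 0.66, adjusted p = 0.0185), NUPR1 (3.37 ± 0.62, adjusted p = 0.0184) and SLC6A20 (3.31 ± 0.48, adjusted p = 0.00223). In these genes the difference was negative on day 8 (-2.11, -2.14, -0.59 and -1.53, in that order) and positive on day 9. The day 9 difference itself was not called for CD38 in the reported fit. It was called under some alternatives, among them limma-voom (adjusted p = 0.0103) and the compared classes alone (adjusted p = 0.00346). For PHGDH the day 9 difference was not called under 13 of 20 alternatives (adjusted p up to 0.383) and for NUPR1 under 1 of 20 (adjusted p = 0.099). PHGDH starts serine synthesis, and CD38 breaks down NAD. MPZL2 (2.95 ± 0.42, adjusted p = 0.00194), FOLR1 (2.87 ± 0.43, adjusted p = 0.00232), NEDD4 (2.76 ± 0.53, adjusted p = 0.0225), MOGAT1 (2.66 ± 0.47, adjusted p = 0.0123) and CIDEA (1.92 ± 0.41, adjusted p = 0.0385) had day 8 differences between -0.36 and 0.30. The hypoblast genes PDGFRA (2.20 ± 0.48, adjusted p = 0.0459) and FN1 (1.85 ± 0.37, adjusted p = 0.0297) were lower in trophectoderm by more on day 8 (-2.85 and -3.09), when the inner cells were 1 class, than on day 9, when hypoblast was a class of its own.

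Lower values on day 9 were found for LRRC3 (-3.91 ± 0.51, adjusted p = 0.000972), ERAS (-3.78 ± 0.58, adjusted p = 0.00329), TDGF1 (-3.56 ± 0.73, adjusted p = 0.0385) and ICOSLG (-3.11 ± 0.57, adjusted p = 0.0183). GLUD1 (-2.77 ± 0.35, adjusted p = 0.000972), the condensin subunit NCAPG (-2.68 ± 0.53, adjusted p = 0.0297), PPP2R2B (-2.59 ± 0.49, adjusted p = 0.0225) and TCF7L1 (-2.20 ± 0.48, adjusted p = 0.0472) followed. HELLS (-1.90 ± 0.38, adjusted p = 0.03) was lower in trophectoderm on both days. DUSP6 (-2.40 ± 0.47, adjusted p = 0.0267) and PRR5 (-2.53 ± 0.53, adjusted p = 0.0385) had positive differences on day 8 (0.97 and 1.74).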

How the results depend on the processing

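The count of 1902 genes called between LB TE and LB EPI was 3100 with the 2 compared classes fitted alone and 3168 with limma-voom on summed reads, and ran from 851 to 1876 with 1 library left out. Under the other alternatives it stayed within 1.5 times the reported count. Without replicate 3, 65.6% of the calls were higher in LB TE, against 54.5% in the reported fit. The replicate block was checked both ways: without a replicate block 1461 genes were called, and with the library as a fixed replicate block 1890. The 46 genes that differed between day 9 and day 8 ran from 0 to 49 with 1 library left out. They were 13 without a replicate block, 11 and 86 with a pseudocount of 1 and 50 CPM, 10 without the filter on low values, 103 with the compared classes alone and 13 with at least 5 cells per average. They were 155 with means of log2 values, 122 with limma-voom, 115 without cells under 50000 reads, 97 without the highest cell of each average and 127 with the median over cells. The share of these that was higher was 58.7% in the reported fit, 44.2% with a pseudocount of 50 CPM, 30.3% with means of log2 values and 72.7% with a pseudocount of 1 CPM. Of the 184 called genes that the text names, 124 kept the call under every alternative run and 60 lost it under at least 1. Of these 1 lost its sign, S100G, which gave 0 with medians. The other differences that reversed or went to 0 were uncalled. CDH1 gave 0 without a replicate block, 0.04 with means of log2 values and with medians, 0.02 without cells under 50000 reads, 0.13 without the highest cell and -0.06 to 0.01 with 1 library left out. GATA4 gave 0.1 with limma-voom, 0.05 without the highest cell and 0 with medians. RSPO3 gave 0 with a pseudocount of 50 CPM, 0.06 with a fixed replicate block, 0.05 with means of log2 values, 0.21 without the highest cell, 0.01 with medians and -0.31 to 0.3 with 1 library left out. The causes were not tested. LB TE rests on 2 library averages, so 1 library can decide a call, and transcripts of few reads per cell, such as CDX2 and LIN28A, are missed in single cells at this depth.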

Other observations

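XIST, the RNA that coats the inactive X chromosome, was uneven between libraries within LB EPI. It averaged 1.66 and 2.28 CPM in LB TE (replicates 3 and 5) and 131, 2.78 and 2.54 in LB EPI (replicates 2, 3 and 5), with log2 difference -0.83, SE 1.34, adjusted p = 0.794. All 11 LB EPI cells of replicate 2 had a read, against 2 of 9 and 5 of 24 LB EPI cells of replicates 3 and 5 and 3 of 21 and 4 of 9 LB TE cells of replicates 3 and 5. No library with a high XIST average entered the LB TE group.

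Genes with the clearest separation between cells included several that belong to no list. They were chosen after their values were seen. BCAM, a laminin-binding adhesion protein, averaged 403 and 197 CPM in LB TE and 26.1, 59.5 and 20.8 in LB EPI. MYOF, a ferlin of membrane repair, averaged 189.9 and 199 against 25.9, 21 and 10.2, SLC44A2, a choline transporter-like protein, 253 and 240.4 against 27.9, 53.2 and 27.1, and OSTF1 561 and 599.8 against 74.7, 99.4 and 89.9. On the epiblast side BCNT2 averaged 182 and 244 against 1795, 2358 and 2209, and LOC515333 50.8 and 69.1 against 1046, 994 and 1102.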
